A study of Mus musculus with 34 samples.

Results

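The matrix proteases ADAMTS and MMP, their tissue inhibitors (TIMPs) and the thrombospondins were followed through a 2 h glucocorticoid treatment in mouse cells that carried 1 of 5 forms of the glucocorticoid receptor. Members were all genes of the tables whose symbol is Adamts, Adamtsl, Mmp, Timp1 to Timp4 or Thbs1 to Thbs4 with its number, which gave 55 of 25124 genes. They comprised 19 Adamts, 5 Adamtsl, 23 Mmp, 4 Timp and 4 Thbs genes. The cells were C127l, a mouse line that the labels describe as adenocarcinoma, and in all of them the endogenous receptor had been knocked out (GRKO) and replaced by a GFP-tagged mouse receptor. The receptor carried the substitution P631A, W718E, P643A or W718S/Y722S, or was wild type (WT, labelled GRwt). Each line was given 100 nM dexamethasone (Dex, a synthetic glucocorticoid) for 2 h or vehicle, after a day in charcoal-stripped serum, which removes steroid hormones. There were 3 libraries per treatment in P631A, W718E, P643A and WT, and 5 per treatment in W718S/Y722S. No clone is named as such in the labels. The headers of all libraries share the tag D4, whose meaning is not given. The effect of a substitution cannot be told apart from that of the cell line carrying it. Whether replicates came from separate cultures is not stated either, so that p-values reflect only how these libraries spread, which may be technical.

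The matrix outside a cell is remodelled by zinc-dependent proteases that act on collagens, proteoglycans and growth factor carriers. MMPs are secreted or anchored in the membrane, while ADAMTS proteases carry thrombospondin-type repeats that hold them at the matrix, and ADAMTS-like proteins have the repeats but no protease domain. TIMPs bind the active site of MMPs and block it, and TIMP3 also blocks several ADAM and ADAMTS enzymes. Thrombospondins are secreted glycoproteins that bind cells and matrix. Thrombospondin 1 can activate latent TGF-beta and restrains angiogenesis. Glucocorticoids bind their receptor, which then acts on genes from response elements in DNA or through other factors such as AP-1, and repression of matrix metalloprotease genes through AP-1 is a textbook example.

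Total reads ranged from 24.0 to 43.1 M per library (median 32.3 M), of which 16.5 to 31.5 M were counted in exons. Values below are normalised read counts, that is recovered reads divided by the size factors of each line's own table, unless stated otherwise. Reads of the rRNA precursor Rn45s made up 13.8 to 18.3% of exon counts in mutant libraries and 9.95 to 11.3% in WT libraries, and its part in the comparisons with WT was not tested. Transcripts of the receptor gene Nr3c1 were at 5020.0 to 6369 in mutant libraries and at 6615 to 7145 in WT libraries, with 1 set of size factors for all libraries. Since the introduced receptor gives reads on the same gene, these counts do not check the knockout. All 6 hormone-responsive genes looked at (Sgk1, Per1, Tsc22d3, Fkbp5, Klf9 and Ccn2) rose with Dex in W718E, P643A, W718S/Y722S and WT, and 5 of them, all but Fkbp5, rose in P631A. Their median log2 change was largest for WT, at 2.87, followed by 2.00 for P643A and 1.65 for W718S/Y722S. It was 1.35 for W718E and lowest for P631A, at 1.15. Each gene changed less in P631A than in WT, such as Sgk1 (1.08 against 3.94) and Klf9 (0.46 against 0.61). In the other mutants Klf9 changed more than in WT, and so did Ccn2 in W718S/Y722S. The part of these differences in the results for members was not tested. Markers of epithelial cells were near the floor for an adenocarcinoma line. The 8 together summed to between 70.1 and 160.0 in every library, with Epcam and Cldn4 under 10 throughout, whereas the 8 mesenchymal markers summed to 120708 or more, mostly Vim and Col1a2, with Dcn and Lum under 10 throughout. Defining markers of leukocytes (Ptprc), endothelium (Pecam1) and fat cells (Adipoq) were under 10 in every library. The summed leukocyte markers, mostly Cd68, lay between 114 and 206 in mutant libraries and between 226 and 265 in WT libraries, and the endothelial ones, mostly Cdh5, between 62.2 and 112 in mutant libraries and between 216 and 286 in WT libraries. Mast cell markers summed to between 0 and 22.6. The sum of the 3 fat cell markers, mostly Fabp4 with Adipoq and Plin1 under 10 in every library, moved with Dex. It was at 39.99 to 62.0 with Dex and 25.3 to 32.6 with vehicle in P631A, 36.6 to 51.7 with Dex and 17.2 to 21.5 with vehicle in W718E, and 170 to 179 with Dex and 41.1 to 59.9 with vehicle in P643A. In W718S/Y722S it was at 51.7 to 98.1 with Dex and 43.0 to 52.2 with vehicle, and in WT at 68.9 to 88.6 with Dex and 3.51 to 11.4 with vehicle. The part of these sums in the results was not tested.

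Dex replicate 1 stood apart from the other Dex libraries in 3 lines. The chi-square per gene between its reads and those of the others was 7.03 to 10.9 in P631A, against 2.85 between the others. It was 9.97 to 12.5 in W718S/Y722S, against 1.30 to 3.27, and 5.58 to 5.86 in WT, against 1.34. Wide gaps were not confined to these libraries. The chi-square per gene was up to 8.33 between vehicle libraries of P631A. In W718E it was up to 8.45 between vehicle libraries and 7.63 between Dex libraries.

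Of the 55 members, 25 had enough reads to be tested in at least 1 line and 22 in all lines. The test of a gene in a line required an unlogged value of 10 in a number of libraries equal to 1 treatment group. Adamtsl2, Mmp2 and Timp3 passed in some lines only. The other 30 members did not reach that value in enough libraries of any line and never exceeded 13.5 with 1 set of size factors. They included the gelatinase Mmp9, the stromelysins Mmp3 and Mmp10, the collagenases Mmp8 and Mmp13, the aggrecanase Adamts5, and Timp4 and Thbs4. Among them, 6 had no read in any library, namely Adamts3, Adamts19, Mmp1a, Mmp1b, Mmp7 and Mmp20. Mmp3, Mmp9 and Mmp13, which are known as targets of glucocorticoid repression through AP-1, therefore had too few reads for a test here.

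Thbs1 had the highest level of all members per kb of transcript, a mean of 6840 over the 34 libraries, followed by the inhibitor Timp2 with 5687. Mmp14, the membrane-anchored collagenase that activates proMMP2, came next with 1238, then Timp1, the broad MMP inhibitor, with 712, and Adamtsl3, an ADAMTS-like matrix glycoprotein, with 558. The proteoglycan-cleaving protease Adamts1 was at 356, Mmp19, which cleaves basement membrane proteins, at 178, and the membrane-anchored Mmp24 at 168. The target of Mmp14, Mmp2, was at 3.87 per kb and Timp3 at 2.64. The inhibitors were therefore represented by Timp2 and Timp1, with Timp3 and Timp4 near the floor.

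**Figure D1:**
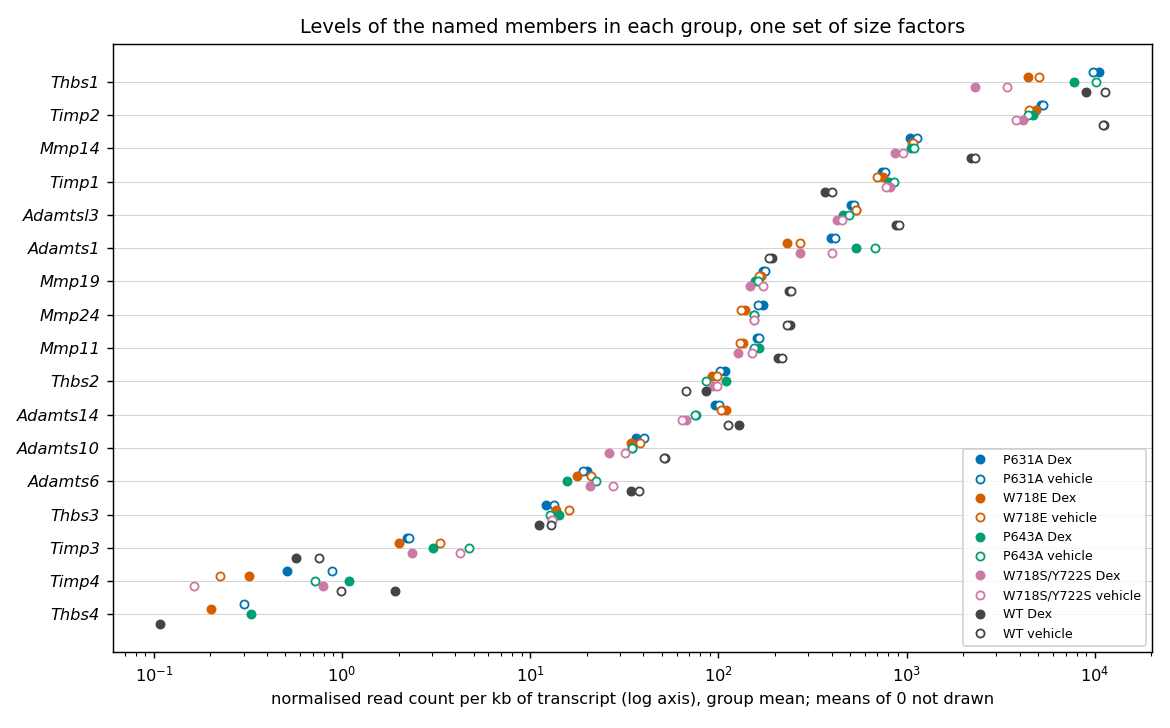
Mean normalised read count per kb of transcript (log axis) of the 17 members described here by name, with 1 set of size factors for all libraries. Each point is a group mean of 3 or 5 libraries, filled for Dex and open for vehicle, with 1 colour per line. Thbs1 and Timp2 lie above all others. WT lies to the right of all mutant lines for members that include Timp2, Mmp14 and Adamtsl3, and to the left for members that include Timp1 and Adamts1.

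The lines stood apart in their levels with vehicle, which are given as a description with no test because the tables were normalised separately and each line is a culture of its own. With 1 set of size factors, vehicle libraries of Timp2 averaged 13715 ± 349 in W718S/Y722S (SD, n = 5), 15942 ± 222 in P643A, 16176 ± 289 in W718E and 19118 ± 1647 in P631A, against 39792 ± 877 in WT (n = 3 each). Mmp14 averaged between 3613 in W718S/Y722S and 4280 in P631A across the mutant lines, against 8794 in WT. Both were thus at 34.5 to 48.7% of the WT level in all 4 mutant lines, and no mutant vehicle library reached a WT one. The share of all genes that lay apart from WT in all 4 mutant lines was not counted. Whether the levels in this paragraph are particular to the members was therefore not tested. Vehicle means were below WT in all 4 mutant lines for other members too. Adamtsl3 was at 49.6 to 59.4% of WT, Adamts6 at 50.2 to 72.4% and Adamts10 at 61.5 to 78.0%. Adamts14 was at 57.0 to 92.6%, Mmp11 at 59.7 to 74.9%, Mmp19 at 66.7 to 73.3% and Mmp24 at 56.6 to 70.0%. Timp1 ran the other way, with 683 ± 51.1 in W718S/Y722S (SD, n = 5), 755 ± 25.6 in P643A, 615 ± 38.4 in W718E and 677 ± 13.4 in P631A, against 353 ± 5.65 in WT (n = 3 each). Adamts1 was at 146 to 366% of WT, lowest in W718E and highest in P643A. Over the 4 mutant lines Thbs2 was at 128 to 150% of WT, and Timp3, near the floor, at 297 to 621%. Thbs1 split the mutant lines, at 85.7% of WT in P631A and 89.7% in P643A, but 44.4% in W718E and 29.9% in W718S/Y722S.

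The changes with Dex that passed ran from -0.58 for Adamts1 in W718S/Y722S to 0.36 for Thbs2 in P643A on the log2 scale. In P631A, 0 of 25 tested members passed an adjusted p of 0.05 (limma, Benjamini-Hochberg over all tested genes), where 0.221% of all genes did, and 1 member had an unadjusted p under 0.05. In W718E 1 of 24 passed, against 0.524% of all genes. In P643A 5 of 24 passed, against 4.78%. In W718S/Y722S, with 5 libraries per treatment rather than 3, 8 of 24 passed, against 4.79%. In WT 3 of 24 passed, against 6.7%. In W718E, replicate numbers were taken to pair the libraries, a choice made from these same data. A block for the number raised the count there to 3 of 24, against 2.29% of all genes. The count in W718S/Y722S was 5 rather than 8 when vehicle replicate 1, 3 or 5, or Dex replicate 4 or 5, was left out. Without Dex replicate 1, which stood apart, 0 of 25 members passed in P631A (0.386% of all genes), 7 of 24 in W718S/Y722S (7.8%) and 4 of 24 in WT (9.81%). In W718S/Y722S these were Adamts1, Adamts6, Mmp14, Mmp19, Thbs1 and Timp2, as with all libraries, and Adamtsl4, while Adamts10 and Mmp11 missed the threshold. In WT Adamtsl3 was added to the 3. Each difference from WT that passed also did so without Dex replicate 1 of P631A, W718S/Y722S or WT, where that library was part of it. The authors' deposited table listed an adjusted p under 0.05 for 0 members in P631A (0.155% of its 25124 genes), 1 in W718E (0.306%), 4 in P643A (1.62%), 6 in W718S/Y722S (2.42%) and 2 in WT (2.45%). Of the 8 members called with all W718S/Y722S libraries, 7 were lower with Dex and 1 higher, where 2.24% and 2.55% of all genes were called lower and higher. In P643A 2 members rose (2.63% of all genes did) and 3 fell (2.15%), and with libraries centred on their median 2 rose and 5 fell. The median log2 change over the members was -0.05 in P631A, -0.01 in W718E, 0.01 in P643A, -0.09 in W718S/Y722S and -0.03 in WT, beside medians of -0.0019 to 0.0013 over all tested genes. In these bulk libraries, fewer cells of a kind and less RNA per cell cannot be told apart.

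Groups whose libraries did not overlap were counted as well. This held for 1 of 25 members in P631A (11.1% of all genes), 6 of 24 in W718E (11.7%), 7 of 24 in P643A (19.3%), 7 of 24 in W718S/Y722S (6.26%) and 7 of 24 in WT (21.3%).

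**Figure D2:**
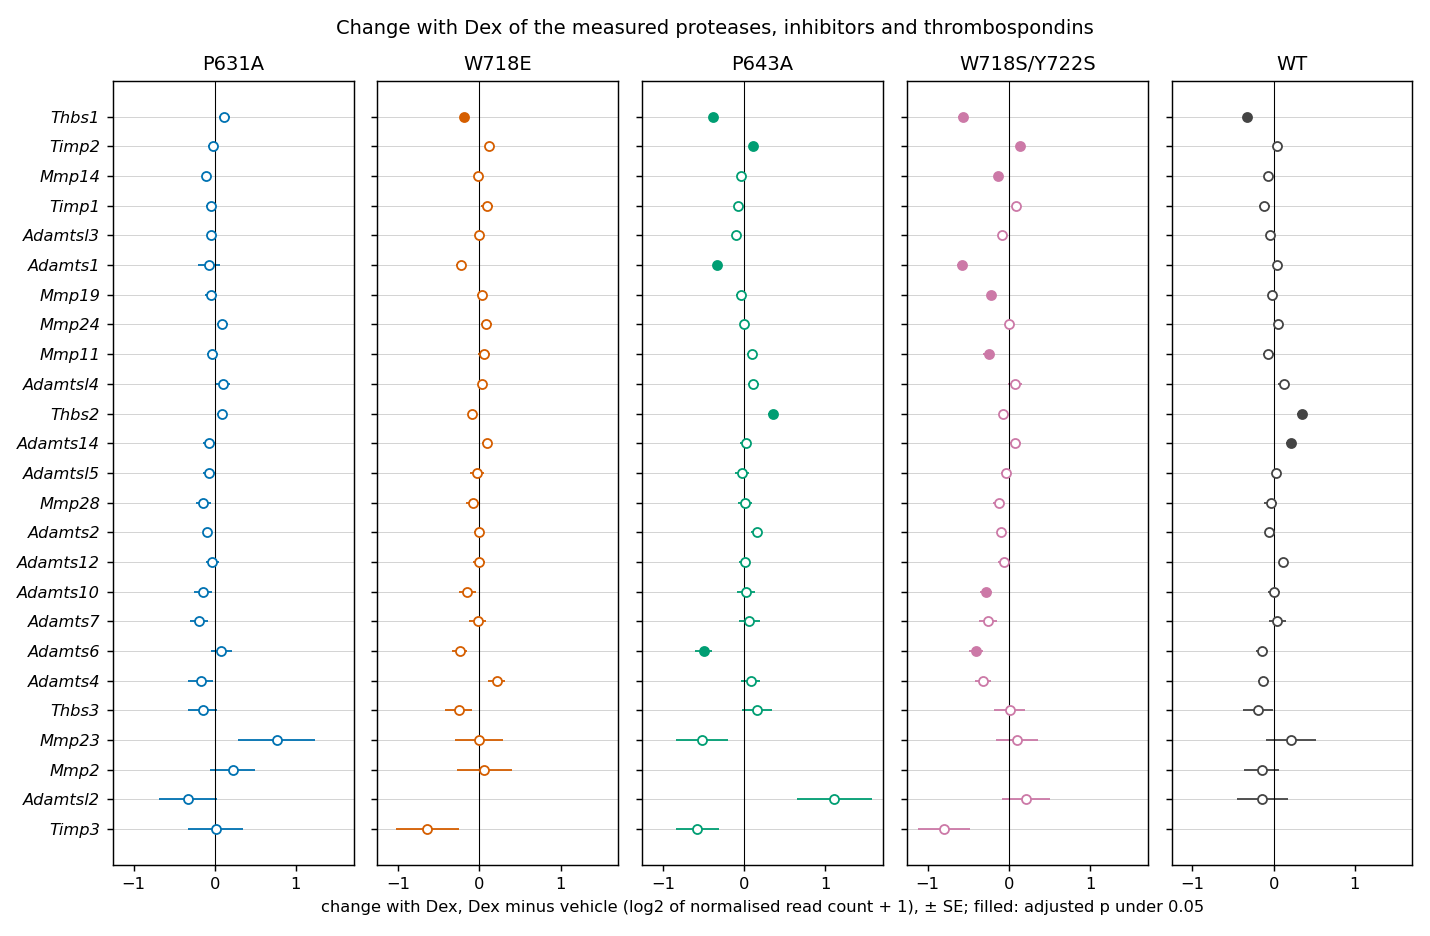
Change with Dex, Dex minus vehicle, of the 25 tested members (rows, ordered by level per kb) in each line, on the log2 scale of normalised read count plus 1, with SE bars. Filled points passed an adjusted p of 0.05. Thbs1 lies left of 0 in W718E, P643A, W718S/Y722S and WT, and W718S/Y722S holds 7 filled points left of 0. Members at the bottom have few reads and wide errors.

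Promoter windows are shown for the 3 members that passed in at least 2 lines and have an entry in the RefSeq table (GRCm38.p6, 250 bases before to 50 after the start, written 5′ to 3′ on the strand of the gene). Capitals mark the letters TATAAA, as in a TATA box, on either strand. In Adamts1 they are on the strand of the gene. In Thbs2 they read TTTATA, a match on the opposite strand, and whether either match acts as a TATA box was not tested. The windows lie at chr17:14694213-14694512 for Thbs2, chr16:85803064-85803363 for Adamts1 and chr11:118355362-118355661 for Timp2, all on the minus strand.
Thbs2: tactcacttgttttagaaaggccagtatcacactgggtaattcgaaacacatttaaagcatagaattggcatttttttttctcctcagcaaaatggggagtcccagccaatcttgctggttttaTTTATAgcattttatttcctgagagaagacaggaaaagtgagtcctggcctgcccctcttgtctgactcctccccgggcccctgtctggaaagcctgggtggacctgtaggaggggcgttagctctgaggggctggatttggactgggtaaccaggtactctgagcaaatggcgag
Adamts1: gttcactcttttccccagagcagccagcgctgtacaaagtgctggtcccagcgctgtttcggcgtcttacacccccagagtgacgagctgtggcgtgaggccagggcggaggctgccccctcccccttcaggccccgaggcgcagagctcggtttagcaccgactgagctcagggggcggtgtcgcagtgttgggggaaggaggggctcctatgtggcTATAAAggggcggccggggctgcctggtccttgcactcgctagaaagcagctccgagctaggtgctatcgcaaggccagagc
Timp2: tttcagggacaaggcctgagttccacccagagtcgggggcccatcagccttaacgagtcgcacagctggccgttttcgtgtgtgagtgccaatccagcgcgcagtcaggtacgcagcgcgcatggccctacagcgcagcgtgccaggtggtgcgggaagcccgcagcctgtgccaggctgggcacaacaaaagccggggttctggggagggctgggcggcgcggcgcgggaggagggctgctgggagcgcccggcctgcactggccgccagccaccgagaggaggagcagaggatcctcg
The table held 39 of the 55 members and 13 of the 17 described by name; Thbs1, Adamts6, Adamts10 and Mmp19 were not matched. Each window was searched on both strands for the palindromic glucocorticoid response element, for AGAACA, which is 1 arm of it, and for the AP-1 site TGANTCA. The response element was in 0 of the 13 windows, against 0.0639% of all 32851 promoters, and the AP-1 site in 0, against 7.81%. AGAACA was in the window of Mmp11 alone, against 19.0% of all promoters, and TATAAA in those of Thbs2 and Adamts1, against 13.6%. Matches of AGAACA and of the whole element can overlap. These letters not being in a window says nothing about sites elsewhere.

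Thbs1 (chromosome 2, 118111876-118127133, plus strand, mm10) was the member that fell in the most lines. In P643A it was at 49767, 49272 and 51501 with Dex, against 62621, 70122 and 64552 with vehicle. In W718S/Y722S the Dex libraries held 9319.6, 11726, 11874, 11367 and 11589, against 17237, 15849.9, 16096, 15529 and 17768 with vehicle. In WT the levels were 56044, 54373 and 55756 with Dex and 74437, 63639 and 71356 with vehicle. In all 3 of these lines every Dex library lay below every vehicle library. The log2 change was -0.39 ± 0.03 in P643A (SE, adjusted p = 1.18e-10), -0.57 ± 0.06 in W718S/Y722S (adjusted p = 1.83e-06) and -0.33 ± 0.04 in WT (adjusted p = 1.48e-05). In W718E Thbs1 was at 26666, 27212 and 26448 with Dex and at 30928, 30271 and 30565 with vehicle. These groups did not overlap either, and the change was -0.19 ± 0.03 (adjusted p = 0.0125, or 2.13e-08 with the replicate block). Without the block it missed the threshold when replicate 1 was left out of Dex (adjusted p = 0.112) or of vehicle (0.147). P631A was the exception, with 61377, 74871 and 70145 with Dex and 65798, 61629.5 and 62605 with vehicle. There the groups overlapped and the change was 0.11 ± 0.07 (adjusted p = 0.916). The exons of Thbs1 share 208 of 6073 bases with Gm29233, a noncoding gene on the opposite strand, and the strand setting of the count is not given in the file headers.

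The change of Thbs1 in P631A differed from that in WT by 0.45 ± 0.09 log2 units (SE, 95% interval 0.26 to 0.63, adjusted p = 0.00777), which was the only member out of 25 to differ between these lines, where 1.98% of all genes did. For the other mutants the difference from WT missed the threshold. It was 0.14 (0.01 to 0.27, adjusted p = 0.522) in W718E, -0.06 (-0.19 to 0.07, adjusted p = 0.847) in P643A and -0.23 (-0.42 to -0.05, adjusted p = 0.25) in W718S/Y722S. Leaving out WT vehicle replicate 2, the lowest of its group, brought the W718E difference to an adjusted p of 0.0391. All comparisons with WT share the 6 WT libraries. The hormone-responsive genes also changed less in P631A than in WT. Whether the P631A difference is particular to Thbs1 was not tested.

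Thbs2 (chromosome 17, 14665500-14694262, minus strand), the second antiangiogenic thrombospondin, moved opposite to Thbs1 in P643A and WT, and its promoter window is among those printed. Its Dex libraries were at 708, 724 and 733 in P643A, against 628, 517 and 549.6 with vehicle. WT had 556, 561 and 495 with Dex and 406, 435 and 419 with vehicle. In both lines every Dex library lay above every vehicle library, and the rise was 1.28-fold in each. On the log2 scale this was 0.36 ± 0.06 in P643A (adjusted p = 6.35e-05) and 0.35 ± 0.06 in WT (adjusted p = 0.000645). In P631A Thbs2 averaged 714 ± 60.6 with Dex and 669 ± 13.4 with vehicle (SD, n = 3 each). In W718E it averaged 571 ± 10.3 with Dex and 607 ± 34.9 with vehicle (n = 3 each), and in W718S/Y722S 460.4 ± 25.8 with Dex and 484 ± 34.1 with vehicle (n = 5 each). The groups overlapped in these 3 lines, with changes of 0.09 ± 0.07, -0.09 ± 0.06 and -0.07 ± 0.05. The difference in change from WT was -0.44 ± 0.08 in W718E (95% interval -0.62 to -0.26, adjusted p = 0.00605) and -0.42 ± 0.09 in W718S/Y722S (-0.61 to -0.24, adjusted p = 0.00807). For P643A the difference from WT was 0.0037 (-0.18 to 0.19, adjusted p = 0.994) and for P631A -0.26 (-0.46 to -0.07, adjusted p = 0.247). Thbs3, a pentameric thrombospondin of bone and cartilage, was far lower, at 25.1 to 60.8 with Dex and 22.6 to 54.6 with vehicle over all lines, and passed in none. Its exons share 318 bases with Mtx1 on the opposite strand. Thbs4 had at most 2.36 normalised reads in any library with 1 set of size factors.

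**Figure D3:**
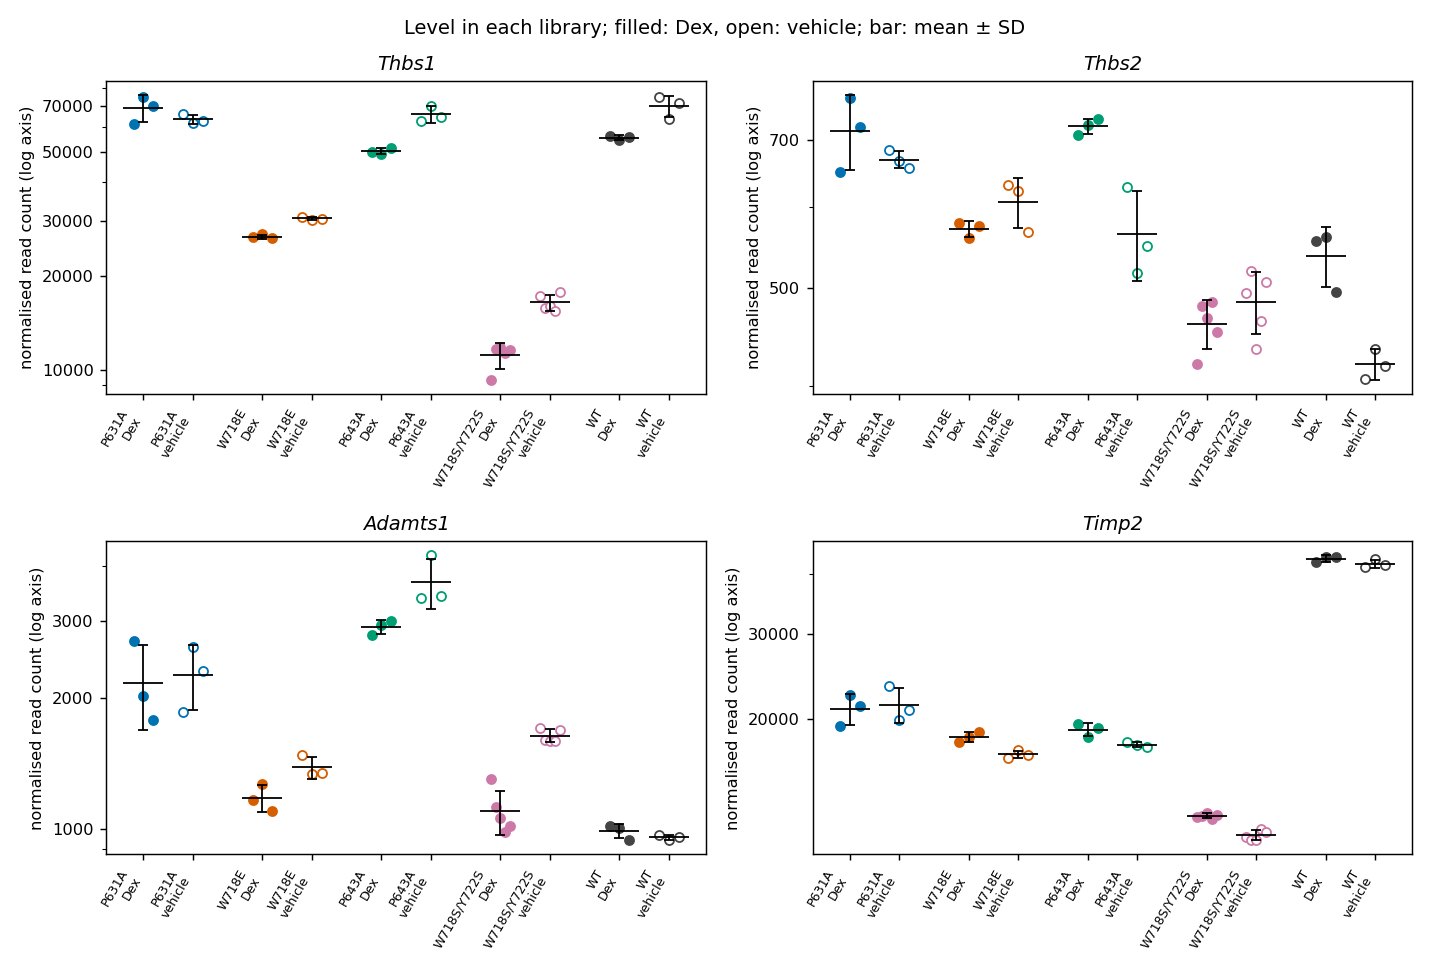
Normalised read count (log axis, each panel with its own range) of Thbs1, Thbs2, Adamts1 and Timp2 in each library, filled for Dex and open for vehicle, with mean ± SD as bars. Values are normalised within each line, so that heights are comparable only inside a line. Dex points of Thbs1 lie below vehicle points in all lines except P631A, and Dex points of Thbs2 lie above in P643A and WT.

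Adamts1 (chromosome 16, 85793828-85803113, minus strand), which cleaves versican and aggrecan, fell in P643A and W718S/Y722S. With Dex it was at 2792, 2937 and 2994 in P643A, against 3384, 4238 and 3423 with vehicle. In W718S/Y722S it was at 1306, 1124, 1064, 988 and 1016 with Dex and at 1709, 1601, 1598, 1593 and 1691 with vehicle. The groups were apart in both lines, by changes of -0.33 ± 0.05 (adjusted p = 3.3e-05) and -0.58 ± 0.06 (adjusted p = 1.17e-06). Without a mean trend in the variance the P643A change missed the threshold (adjusted p = 0.124). In W718E Adamts1 held 1169, 1268 and 1103 with Dex and 1478, 1337 and 1344 with vehicle, again with no overlap. That change of -0.23 ± 0.06 missed the threshold without the block (adjusted p = 0.199) and passed it with the block (adjusted p = 0.000141). In P631A the libraries were widely spread, at 2704, 2020.5 and 1776 with Dex and 1860.3, 2618 and 2304 with vehicle. In WT the values were 1016, 1009 and 948 with Dex and 971, 944 and 963 with vehicle, and groups overlapped in both of these lines.

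The change of Adamts1 differed from that in WT in 2 lines. In P643A the difference in change was -0.38 ± 0.08 (-0.54 to -0.22, adjusted p = 0.0073), and it was the only member of 25 to differ there, against 1.58% of all genes. In W718S/Y722S the difference was -0.63 ± 0.09 (-0.80 to -0.45, adjusted p = 6.19e-05), and 2 of 25 members, Adamts1 and Thbs2, differed from WT, against 1.74% of all genes. For W718E the difference was -0.28 ± 0.07 (-0.43 to -0.13, adjusted p = 0.0629), with Thbs2 the 1 member of 25 that passed, against 1.8% of all genes. With replicate blocks in both lines Adamts1 passed too (adjusted p = 0.0121), which gave 2 of 25 members against 2.85%. It also passed without W718E Dex replicate 2 (0.0132) or vehicle replicate 3 (0.0431). For P631A the difference was -0.12 (-0.45 to 0.22, adjusted p = 0.868). In WT Adamts1 itself changed by 0.05 ± 0.04 (adjusted p = 0.660).

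**Figure D4:**
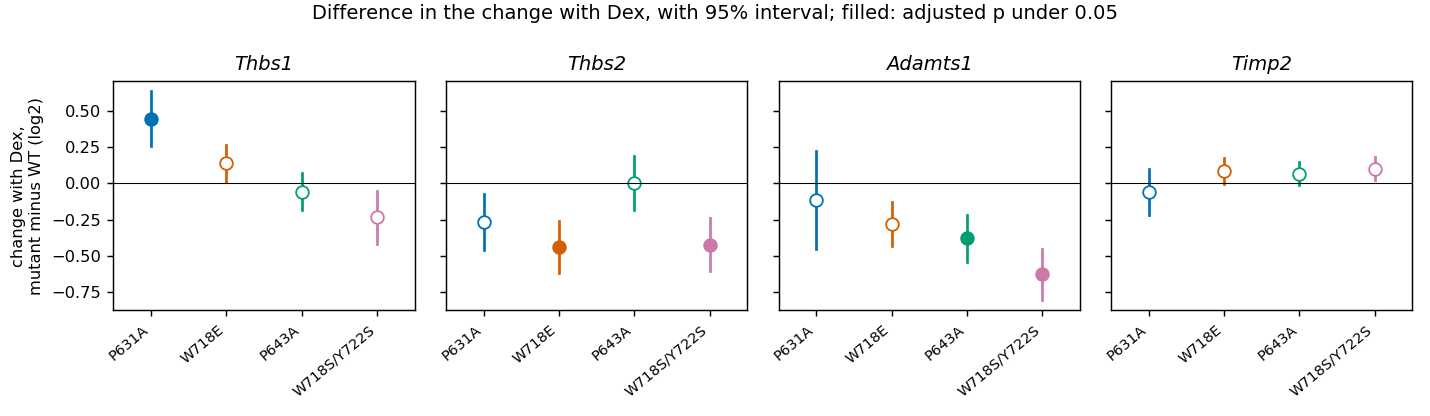
Difference in the change with Dex, mutant minus WT, on the log2 scale, for Thbs1, Thbs2, Adamts1 and Timp2 in the 4 mutant lines, with 95% intervals of the fit. Filled points passed an adjusted p of 0.05: Thbs1 in P631A, Thbs2 in W718E and W718S/Y722S, Adamts1 in P643A and W718S/Y722S. All Timp2 points are open.

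Adamts6 (chromosome 13, 104287835-104496695, plus strand), an ADAMTS protease needed for heart development in mice, fell in the same lines as Adamts1. In P643A it was at 115, 125 and 125 with Dex, against 167, 202 and 151 with vehicle, and in W718S/Y722S at 123, 99.4, 118, 134 and 128, against 155, 167, 177, 146 and 156. Neither pair of groups overlapped. The change was -0.50 ± 0.11 in P643A (adjusted p = 0.00356) and -0.41 ± 0.09 in W718S/Y722S (adjusted p = 0.00714). Without P643A vehicle replicate 2 the first missed the threshold (adjusted p = 0.0509), as it did with no mean trend (0.110). W718E and WT also had all Dex libraries below all vehicle libraries, with changes of -0.24 ± 0.09 (adjusted p = 0.776) and -0.14 ± 0.07 (adjusted p = 0.357). P631A was at 0.08 ± 0.13, and no mutant differed from WT past the threshold.

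Adamts14, a procollagen N-propeptidase, and Adamts10, which acts on fibrillin microfibrils, each passed in 1 line. Adamts14 rose in WT, with 737, 661 and 713 with Dex against 601, 647 and 574 with vehicle, a change of 0.21 ± 0.06 (adjusted p = 0.0226) with no overlap. That call was lost without WT Dex replicate 3 (adjusted p = 0.0905) or vehicle replicate 1 (0.109) or 3 (0.154), and with no mean trend (0.0840). In the mutants Adamts14 changed by between -0.07 in P631A and 0.09 in W718E. Adamts10 fell in W718S/Y722S, with Dex libraries at 92.8, 97.6, 96.4, 100.0 and 84.7 against vehicle libraries at 116, 121, 109, 112 and 117. The change was -0.28 ± 0.08 (adjusted p = 0.0496). The groups did not overlap, yet leaving out any 1 of the 10 libraries lost the call, with adjusted p between 0.0601 and 0.122. So did no filter on low values (0.0595). In the other lines Adamts10 changed by between -0.15 in W718E and 0.02 in P643A. Adamts4, an aggrecanase, is named after its values were seen because it also had separate groups in W718S/Y722S. There it was at 54.4 to 63.5 with Dex and 71.3 to 81.2 with vehicle, a change of -0.32 ± 0.09 (adjusted p = 0.0714). Elsewhere Adamts4 changed by 0.21 in W718E, 0.08 in P643A, -0.17 in P631A and -0.13 in WT. Adamts12, named on the same ground, had all Dex libraries above all vehicle libraries in WT, at 0.11 ± 0.05 (adjusted p = 0.261). Adamtsl3 passed in no line, with its largest change in P643A, -0.10 ± 0.03 (adjusted p = 0.0763).

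No MMP differed from WT past the threshold in any mutant. Among the MMPs, calls were made in W718S/Y722S alone, the line with 5 libraries per treatment rather than 3. Mmp19 (chromosome 10, 128790955-128800827, plus strand) fell there, with 387, 441, 402, 438 and 425 with Dex against 489, 468, 489.6, 507 and 489 with vehicle, a change of -0.22 ± 0.05 (adjusted p = 0.0064) with no overlap. Mmp14 (chromosome 14, 54431598-54442456, plus strand) held 2548, 2724, 2882, 2828 and 2808 with Dex against 3079, 2869, 2935, 3086 and 3104 with vehicle. There 1 Dex library lay above 1 vehicle library, and the change was -0.13 ± 0.04 (adjusted p = 0.0427). Mmp11, stromelysin 3, was at 208 to 264 with Dex and at 259.9 to 302 with vehicle, a change of -0.25 ± 0.07 (adjusted p = 0.0475). The calls of Mmp14 and Mmp11 were lost when 1 library was left out in 7 and 8 of 10 cases, with adjusted p up to 0.127 and 0.118. The lost cases for Mmp14 were without vehicle replicate 1, 3, 4 or 5, or Dex replicate 2, 4 or 5. For Mmp11 they were without vehicle replicate 1, 2, 3 or 5, or Dex replicate 1, 3, 4 or 5. Both calls were also lost with no filter on low values (adjusted p = 0.0799 for Mmp14 and 0.0692 for Mmp11) and with no mean trend (0.0580 and 0.0615 in that order), and that of Mmp11 on recovered counts (0.0503). In the other lines Mmp14 changed by -0.11 ± 0.04 in P631A (adjusted p = 0.760), where all Dex libraries lay below all vehicle libraries, and by -0.07 ± 0.03 in WT (adjusted p = 0.172), where they did too. Its change was -0.02 ± 0.04 in W718E and -0.03 ± 0.03 in P643A. Mmp11 changed by 0.10 in P643A, where all Dex libraries lay above all vehicle libraries. It changed by 0.05 in W718E, -0.03 in P631A and -0.06 in WT. For Mmp19 the changes in the other lines lay between -0.04 in P643A and 0.03 in W718E. The changes of Mmp24 lay between -0.0018 in P643A and 0.09 in P631A. In exons, Mmp11 shares 155 bases with Chchd10, Mmp19 789 bases with Tmem198b and Mmp24 637 bases with BC029722, each on the opposite strand.

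Timp2 (chromosome 11, 118301061-118355411, minus strand), which blocks MMPs and also bridges Mmp14 to proMMP2, was the inhibitor that rose. In P643A it was at 19481, 18322 and 19141 with Dex, against 17923, 17636 and 17446 with vehicle. In W718S/Y722S it was at 12516, 12577, 12754, 12387 and 12626, against 11371, 11205, 11203, 11806 and 11635. W718E held 17896, 18305 and 18770.5 with Dex and 16591, 17192 and 16830.0 with vehicle. All Dex libraries lay above all vehicle libraries in these 3 lines, by 1.07-, 1.10- and 1.09-fold in the order given. The change passed in P643A at 0.10 ± 0.03 (adjusted p = 0.0176) and in W718S/Y722S at 0.14 ± 0.03 (adjusted p = 0.00306). In W718E it was 0.12 ± 0.03, with an adjusted p of 0.296 without the block and 0.0011 with it. The P643A call was lost without its Dex replicate 1 (adjusted p = 0.177) or 3 (0.0801) or vehicle replicate 3 (0.107), and with no mean trend (0.0940). In P631A Timp2 changed by -0.02 ± 0.06 and in WT by 0.04 ± 0.03, with overlapping groups. The difference from WT passed in no mutant. It was 0.08 in W718E (-0.01 to 0.17), 0.07 in P643A (-0.01 to 0.15) and 0.10 in W718S/Y722S (0.02 to 0.18).

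Timp1 passed in no line. Its changes ran from -0.11 ± 0.07 in WT to 0.10 ± 0.07 in W718E, and the Dex and vehicle groups overlapped in all 5 lines. Timp3 was tested in the 4 mutant lines at 5.44 to 19.5 with Dex and 7.53 to 28.6 with vehicle. Its change was -0.80 ± 0.32 in W718S/Y722S, -0.64 ± 0.39 in W718E, -0.58 ± 0.27 in P643A and 0.01 ± 0.34 in P631A, with adjusted p of 0.220 or more. With libraries centred on their median the change in P643A passed (adjusted p = 0.0457). The exons of Timp3 share 1733 bases with Syn3 on the opposite strand. Timp4 was at or below 9.26 in every library with 1 set of size factors.

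Other genes of pericellular proteolysis were read from a list of 29, of which 18 to 20 were tested per line. The plasminogen activator Plau fell in W718S/Y722S (-0.43 ± 0.11) and WT (-0.90 ± 0.09), and its receptor Plaur fell in P643A (-0.14 ± 0.04) and WT (-0.24 ± 0.06). In all, 0 of 19 genes of that list fell in P631A (0.0236% of all genes did), 0 of 20 in W718E (0.0476%), 2 of 19 in P643A (2.15%), 3 of 18 in W718S/Y722S (2.24%) and 3 of 18 in WT (2.74%). With the replicate block 1 of 20 fell in W718E, against 0.96% of all genes, which was the lysosomal protease Ctsl (-0.10 ± 0.05, adjusted p = 0.0394, or 0.891 without the block). The list's median log2 change lay between -0.03 and 0.02 in every line.

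Substrates and partners were read from 25 genes, of which 15 to 19 were tested per line. Cd47, a cell receptor of thrombospondin 1, rose in P643A (0.37 ± 0.04), W718S/Y722S (0.33 ± 0.06) and WT (0.42 ± 0.03). In W718E its change of 0.24 ± 0.06 had an adjusted p of 0.177 without the block and 9.82e-06 with it. Sdc4, a heparan sulphate proteoglycan, rose in all 5 lines, from 0.24 ± 0.04 in P631A to 1.02 ± 0.03 in WT. Fn1 and Hspg2 fell in P643A, by 0.12 and 0.20 on the log2 scale, and Ltbp3 and Tgfb3 fell in W718S/Y722S, by 0.17 and 0.18. Of this list 1 of 18 genes passed in P631A (0.221% of all genes did), 1 of 18 in W718E (0.524%, or 2 of 18 against 2.29% with the block), 5 of 17 in P643A (4.78%), 7 of 15 in W718S/Y722S (4.79%) and 6 of 19 in WT (6.7%). Its median log2 change lay between -0.01 and 0.05.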

How the data were processed

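The submitters' processing notes name cutadapt, STAR 2.7.0f, HOMER 4.10.4 and the mm10 build. Per the file headers, HOMER counted reads in exons of RefSeq transcripts and 1 transcript was kept for each gene. The authors deposited 1 table per line with log2 values for each library, normalised within the table by a transform that the file headers do not name, and their own log2 fold changes with p-values and adjusted p-values. These log2 values are shrunken toward the mean of each gene, so read counts were recovered by inverting the shrinkage. The share of recovered values less than 0.1 from a whole number was 99.99 to 100% for genes with a mean under 100. It was 99.90 to 99.91% at means of 100 to 1000. The inversion was itself fitted on values near whole numbers, and higher means, such as those of Thbs1, Timp2 and Mmp14, were not checked this way. For genes with a mean of 100 or more, log2 changes from recovered counts lay a median of 0.000754 to 0.00109 from those of the authors.

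Dex was tested against vehicle within each line with limma 3.58.1 (R 4.3.3, mean trend) on the deposited log2 values, and mutants against WT on log2 of recovered normalised counts plus 1, with Benjamini-Hochberg adjustment over all tested genes. Printed changes and SEs are from recovered counts, and adjusted p-values of Dex against vehicle from the deposited values. Tables were matched by symbol, since they can hold different transcripts of a gene. Scripts were tested on simulated data. In W718E, libraries with replicate number 2 or 3 deviated together (correlations of 0.483 and 0.580), and those with number 1 less so (0.103). Dex replicate 2 with vehicle replicate 1 was at 0.289. The numbers were taken to pair the W718E libraries, a choice made from these same data, and p-values with the block depend on it. For the difference from WT the block also used the numbers of WT, whose same-number correlations were 0.125, 0.196 and -0.135.

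Named members are those that passed in any test, all Timp and Thbs genes, and the 8 with the highest level per kb. Members, lists and motifs were chosen with earlier results of these data known. The letters TATAAA were added after the windows were read. A gene of the proteolysis list is not reported here.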

Additional observations from a re-analysis of the deposited data

Results flagged for a closer look

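In W718S/Y722S, 1 library with Dex stood apart from the other 4 in 2 of 30 groups of 5 libraries checked, where chance flags about 1 in 20. Its Adamts14 level was 361, against 285 for the next highest, and its Thbs1 level was 9319.6, against 11367 for the next lowest. Both were replicate 1, which also stood apart over all genes: its chi-square per gene against the other 4 was 9.97 to 12.5, and 1.30 to 3.27 among those 4. Without it, Thbs1 averaged 11639 ± 216 with Dex and 16496 ± 959 with vehicle (SD, n = 4 and 5), and the fall still passed (0.706-fold, adjusted p = 1.48e-11). Adamts14 averaged 273 ± 9.59 with Dex and 274 ± 16.1 with vehicle without it (adjusted p = 0.982).

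A difference between a mutant line and WT in the change with Dex passed for 3 members, all by a test of the difference itself. For Thbs1 it was 0.45 in P631A, from a change of 0.11 in P631A and -0.33 in WT. For Thbs2 it was -0.44 in W718E and -0.42 in W718S/Y722S, from changes of -0.09 and -0.07 in these lines and 0.35 in WT. For Adamts1 it was -0.38 in P643A and -0.63 in W718S/Y722S, from changes of -0.33 and -0.58 in these lines and 0.05 in WT. The comparisons share the WT libraries, and Rn45s took a larger share of exon counts in all mutant libraries than in any WT library.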

How the results depend on the processing

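Of 134 single-member results, 22 passed, of which 14 passed under every alternative tried. Of the 112 that did not pass, 104 passed under none, and no result with a call changed direction. With the replicate block the count of members called was 3 rather than 1 in W718E and 5 rather than 8 in W718S/Y722S, and the members that differed from WT numbered 2 rather than 1 in W718E. Outside W718E the numbers were not taken to pair the libraries. In W718S/Y722S, Dex replicates 4 and 5 deviated together with vehicle replicates 2 and 3 (correlations of 0.259 to 0.291). In these libraries 68.6 to 69.3% of total reads were counted in exons, against 72.4 to 74.6% in the others of that line. No fit took this split into account, and its part in the calls was not tested. The block also added Adamtsl3 in P643A (adjusted p = 0.0407). Without a filter on low values 5 members were called in W718S/Y722S, and 2 differed from WT in P643A. Without a mean trend 2 rather than 5 were called in P643A. On the deposited values 2 members differed from WT in W718E. The cause was not tested. Leaving out 1 library gave 0 calls in P631A, 0 to 1 in W718E, 4 to 6 in P643A, 5 to 7 in W718S/Y722S and 2 to 4 in WT. Differences from WT then numbered 1 for P631A and for P643A, 1 to 2 for W718E and 2 for W718S/Y722S. Reads limit the 30 untested members. Timp3 passed in P643A with median centring alone (adjusted p = 0.0457).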

Other observations

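The members listed in the authors' deposited table with an adjusted p under 0.05 were Thbs1 in W718E, P643A, W718S/Y722S and WT, Thbs2 in P643A and WT, Timp2 and Adamts6 in P643A and W718S/Y722S, and Adamts1, Mmp14 and Mmp19 in W718S/Y722S.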
